A study of Mus musculus with 12 samples.

Results

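The interferon-induced transmembrane (IFITM) genes Ifitm1, Ifitm2, Ifitm3, Ifitm6 and Ifitm10 are described here in CD8+ T cells sorted from mouse tumors. They are 5 of the 52636 gene identifiers in the count table and were picked by name. Ifitm1 and Ifitm2 were already known to be lower in GFP+ cells in these libraries, so the GFP+ against GFP- values of the family are given as a description without a test. The response to anti-PD-L1 and the change of the GFP difference with treatment were not used to choose the genes and were tested. Ifitm1, Ifitm2, Ifitm3 and Ifitm10 passed the filter on low counts, whereas Ifitm6 was too low to measure.

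The cells came from Tg(Adora2a-EGFP)EP141Gsat mice on a C57BL/6 background, in which a bacterial artificial chromosome places EGFP under the regulatory sequences of Adora2a, which encodes an adenosine receptor. GFP therefore reports the activity of that transgene and not the receptor protein itself. Female mice aged 6 to 16 weeks received 500000 AT3ova cells, an ovalbumin-expressing mammary carcinoma line, under the skin and were either non-treated or given anti-PD-L1, an antibody against the checkpoint ligand PD-L1, on days 14 and 18. At day 21, CD8+ T cells from the tumors were sorted as GFP+ or GFP-, which gave 4 conditions with 3 libraries each, every library from 3 pooled mice and every condition carrying the reporter. RNA was read from its 3′ ends, so levels are compared between conditions and not between genes.

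IFITM proteins are small membrane proteins of the CD225 (dispanin) superfamily that hinder the fusion of viral and cellular membranes. IFITM1 sits largely at the cell surface, whereas IFITM2 and IFITM3 are found mainly on endosomes and lysosomes. Type I and type II interferons induce these proteins, and some are also held at a basal level in lymphocytes, including memory T cells. Ifitm6 is known from myeloid cells, and the role of Ifitm10 is little understood.

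In the GENCODE annotation of GRCm38, the build to which the authors aligned their reads, 4 members form a cluster on chromosome 7. Ifitm2 spans chr7:140954837-140955987 on the minus strand, Ifitm1 chr7:140967221-140969825 on the plus strand, Ifitm3 chr7:141009586-141010770 on the minus strand and Ifitm6 chr7:141015699-141017924 on the minus strand. Ifitm10 lies apart on the same chromosome at chr7:142325837-142373753, on the minus strand. Ifitm1, Ifitm2 and Ifitm3 were each lower in every GFP+ than in every GFP- library, so the sequence just upstream of each is shown from RefSeq (GRCm38.p6), 5′ to 3′ on the strand of the gene. Each stretch is the part of the 250 bases before the RefSeq start that lies outside annotated exons, namely chr7:140967826-140968027 for Ifitm1, chr7:140955988-140956211 for Ifitm2 and chr7:141010771-141010994 for Ifitm3. The Ifitm1 stretch is intronic in a longer annotated transcript of that gene. Capitals mark a match to the core of the interferon-stimulated response element, GAAANNGAAA.
Ifitm1: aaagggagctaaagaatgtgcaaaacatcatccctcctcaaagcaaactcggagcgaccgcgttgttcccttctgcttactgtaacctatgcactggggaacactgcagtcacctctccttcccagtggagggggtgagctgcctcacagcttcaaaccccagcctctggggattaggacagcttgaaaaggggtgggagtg
Ifitm2: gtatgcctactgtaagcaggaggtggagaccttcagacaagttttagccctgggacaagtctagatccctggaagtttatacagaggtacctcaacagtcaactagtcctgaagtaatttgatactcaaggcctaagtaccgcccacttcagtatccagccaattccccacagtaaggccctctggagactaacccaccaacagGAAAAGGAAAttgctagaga
Ifitm3: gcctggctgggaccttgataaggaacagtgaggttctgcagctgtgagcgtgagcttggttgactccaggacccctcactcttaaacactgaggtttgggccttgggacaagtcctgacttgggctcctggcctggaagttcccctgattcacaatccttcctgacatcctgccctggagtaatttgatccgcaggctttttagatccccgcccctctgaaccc

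Both strands of the 250 bases were searched for that core, for the interferon-gamma activated site TTCNNNGAA and for the cyclic AMP response element TGACGTCA. Ifitm2 held 1 match to the interferon-stimulated core, GAAAAGGAAA, beginning 46 bases before the start, and no match to the other motifs. That core was found in 2.98% of 32851 promoter windows, the activated site in 7.02% and the cyclic AMP element in 1.55%. The windows of Ifitm1, Ifitm3 and Ifitm10 held none of the 3 motifs, and that of Ifitm6 held an activated site, TTCCTTGAA, beginning 10 bases before the start. The longest runs of identical bases were 11 long between the Ifitm2 and Ifitm3 stretches (tgggacaagtc and agtaatttgat) and 8 long between Ifitm1 and Ifitm2 (tactgtaa).

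The libraries held between 11292699 and 19023900 counts. Adora2a, which checks the sort, was measured at 63.5 ± 3.59 CPM (the count per 1000000 counts of a library, scaled by the trimmed mean of M-values, TMM, given as mean ± SD, n = 3) in GFP+ and 22.2 ± 2.31 in GFP- non-treated libraries. After anti-PD-L1 it stood at 88.9 ± 22.5 CPM in GFP+ and 30.7 ± 4.38 in GFP- libraries. All 8 T cell and CD8 markers were present, with a summed level of 4221 to 6464 CPM, and of 3 CD4 T cell markers Cd4 did not exceed 0.919 CPM, while Foxp3 was present in all 12 libraries at 6.44 to 24.9 CPM and Cd40lg at up to 2.64 CPM. GFP+ libraries KT13 (non-treated) and KT21 (anti-PD-L1) stood apart, with median Spearman correlations to the other libraries of 0.941 and 0.935 against 0.967 to 0.977 for the rest. Results are therefore given for all 12 libraries and for the 10 without KT13 and KT21. In bulk RNA, fewer cells expressing a gene and less of its RNA per cell cannot be told apart.

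Ifitm1 was present in the GFP+ non-treated libraries KT13, KT15 and KT17 at 199, 466 and 249 CPM. The GFP- non-treated libraries KT14, KT16 and KT18 held 648, 964 and 866 CPM. Thus every GFP+ library lay below every GFP- library. After anti-PD-L1, KT19, KT21 and KT23 (GFP+) stood at 371, 513 and 495 CPM and KT20, KT22 and KT24 (GFP-) at 772, 969 and 1240 CPM, again without overlap. The log2 fold change of GFP+ against GFP- cells was -1.44 ± 0.286 (SE) in non-treated cells, 2.71-fold lower, and -1.11 ± 0.284 after anti-PD-L1, 2.16-fold lower. With 10 libraries the 2 differences were -1.21 ± 0.214 and -1.20 ± 0.214 on the log2 scale. Ordered by mean, the conditions ran from non-treated GFP+ (305 ± 142 CPM) through anti-PD-L1 GFP+ (459.5 ± 77.2) and non-treated GFP- (826 ± 161) to anti-PD-L1 GFP- (993 ± 235), and the ranges of the treatments overlapped within each sorted fraction. Between 2232 and 18991 raw counts stood behind each library's value.

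Ifitm2 showed the same order of condition means over the 12 libraries, at a lower count. It was measured at 41.9, 37.4 and 27.6 CPM in the GFP+ and at 79.3, 75.8 and 70.7 CPM in the GFP- non-treated libraries (KT13, KT15, KT17 and KT14, KT16, KT18). After anti-PD-L1 the GFP+ libraries KT19, KT21 and KT23 held 26.5, 65.0 and 32.6 CPM and the GFP- libraries KT20, KT22 and KT24 held 70.2, 90.8 and 75.6 CPM. No GFP+ library reached a GFP- library, although KT21 came close. Without KT13 and KT21 the mean was 32.4 CPM in non-treated GFP+ and 29.5 CPM in anti-PD-L1 GFP+ libraries, so their order turned. The log2 fold change of GFP+ against GFP- cells was -1.08 ± 0.275 (2.11-fold lower) in non-treated cells and -0.93 ± 0.274 (1.91-fold lower) after anti-PD-L1. With 10 libraries it was -1.21 ± 0.167 in non-treated cells and -1.42 ± 0.170 after anti-PD-L1, and the latter value was also -1.42 when KT21 alone was left out.

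Sequence shared with other genes bears on Ifitm2 more than on the others. Of its 581 distinct stretches of 75 bases, the read length, 42.0% occur in transcripts of other genes, and of those in its last 400 bases, where 3′ reads fall, 15.3% do. The sharing genes are Gm45717, annotated on the same strand over the first exon of Ifitm2, which held 0 counts, and 4 processed pseudogenes, of which Gm8865 held 73 and Gm11951 17 counts in all, against 10476 for Ifitm2. The level of Ifitm2 is uncertain to the extent that reads matching several places were handled differently from others. Ifitm1 and Ifitm3 shared 0.58% and 0.66% of their stretches and Ifitm6 none. Ifitm10 shared 2.99%, all with Gm49369, which overlaps its exons on the same strand and held 0 counts. The levels of Ifitm2 and Ifitm10 also depend on how reads over exons shared with Gm45717 and Gm49369 were handled.

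Ifitm3 had the smallest GFP difference of these 3 genes. The non-treated GFP+ libraries KT13, KT15 and KT17 held 83.7, 175 and 135 CPM and the GFP- libraries KT14, KT16 and KT18 held 213, 181 and 281 CPM. After anti-PD-L1, KT19, KT21 and KT23 were at 129, 169.5 and 133 CPM and KT20, KT22 and KT24 at 211, 212 and 236 CPM. The groups did not overlap, but KT15 (GFP+) and KT16 (GFP-) lay close together. The log2 fold change of GFP+ against GFP- cells was -0.78 ± 0.238 (1.72-fold lower) in non-treated cells and -0.61 ± 0.238 (1.52-fold lower) after anti-PD-L1, and -0.54 ± 0.153 and -0.74 ± 0.154 with 10 libraries. By mean the conditions ran from non-treated GFP+ (131 ± 45.6 CPM) and anti-PD-L1 GFP+ (144 ± 22.3), which overlapped, to anti-PD-L1 GFP- (219.5 ± 14.1) and non-treated GFP- (225 ± 51.1), which overlapped as well.

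The GFP+ and GFP- libraries of Ifitm10, the member outside the cluster, overlapped in both treatments. Its non-treated levels were 18.5, 23.4 and 18.1 CPM in KT13, KT15 and KT17 (GFP+) and 28.8, 20.3 and 18.4 CPM in KT14, KT16 and KT18 (GFP-). After anti-PD-L1 they were 21.6, 30.6 and 18.1 CPM in KT19, KT21 and KT23 (GFP+) and 21.7, 19.03 and 22.7 CPM in KT20, KT22 and KT24 (GFP-). No group stood apart. The log2 fold change of GFP+ against GFP- cells was -0.17 ± 0.233 in non-treated cells and 0.15 ± 0.233 after anti-PD-L1, each smaller than its standard error (-0.12 and -0.09 with 10 libraries). All 4 condition means lay between 20.0 and 23.4 CPM, and no neighbors in that order were separated.

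Ifitm6 could not be measured. It had 43 counts over all libraries, with 10 and 14 in KT16 and KT18 (GFP-, non-treated), 4 and 5 in KT21 and KT23 (GFP+, anti-PD-L1), 6 and 4 in KT20 and KT22 (GFP-, anti-PD-L1) and 0 in the other 6 libraries. A count of 0 still allows up to 3 counts, or 0.170 to 0.267 CPM in those libraries. The summed counts of 0, 24, 9 and 10 in non-treated GFP+, non-treated GFP-, anti-PD-L1 GFP+ and anti-PD-L1 GFP- cells allow no fold change to be given.

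**Figure D1:**
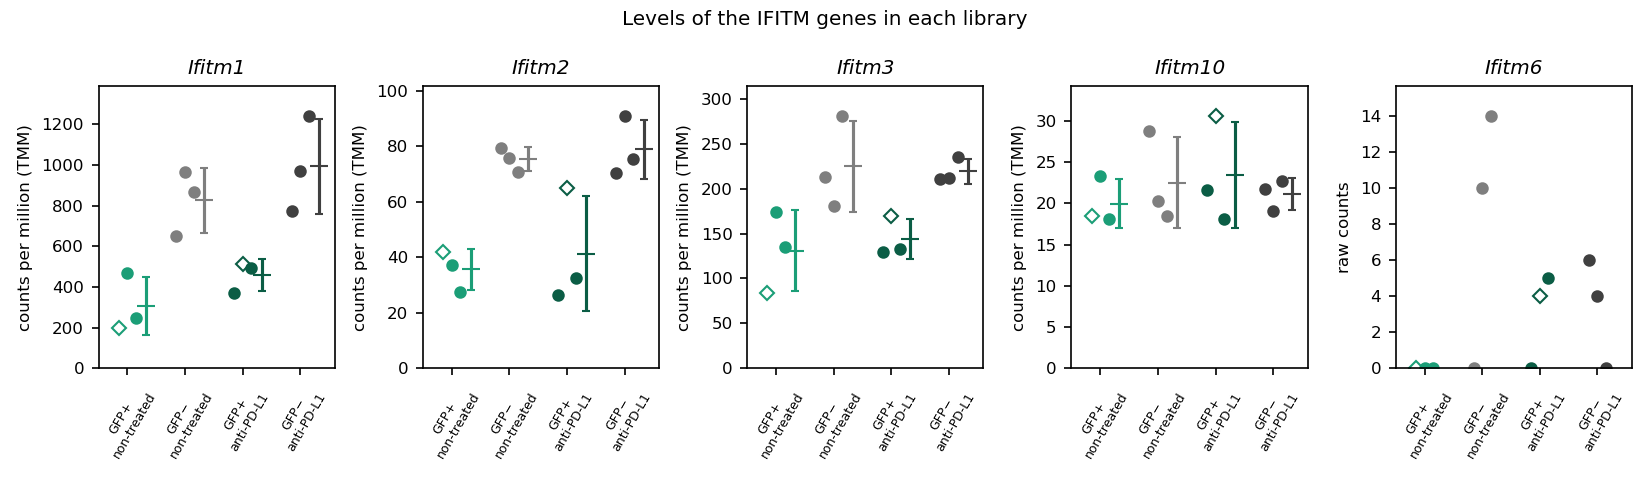
Levels of the IFITM genes in each library: CPM after TMM scaling on a linear axis for the 4 genes tested and raw counts for Ifitm6, by condition. Points are libraries (open diamonds, KT13 and KT21), bars are mean ± SD of 3; all GFP+ points lie below all GFP- points for Ifitm1, Ifitm2 and Ifitm3, and those of Ifitm10 overlap.

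Across both treatments, Ifitm1 ranged from 199 to 513 CPM in the 6 GFP+ and from 648 to 1240 CPM in the 6 GFP- libraries. For Ifitm2 the ranges were 26.5 to 65.0 and 70.2 to 90.8 CPM, and for Ifitm3 83.7 to 175 and 181 to 281 CPM. Such a separation of all libraries, GFP+ below GFP-, was found for 3 of the 5 members and for 75 of 14173 genes tested (0.529%). Within non-treated cells 6.63% of the genes tested were separated in this direction, and after anti-PD-L1 5.33% (12.9% and 10.6% with 10 libraries). These shares are given as background, since the same contrasts led to the choice of the family. Likewise, edgeR called 0.00706% of genes between GFP+ and GFP- non-treated cells and 0.0282% after anti-PD-L1 at an adjusted p under 0.05 (0.339% and 0.17% with 10 libraries), and no count of members is set against them.

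The ratio between members within a library compares them free of the scaling between libraries. The log2 ratio of Ifitm1 to Ifitm3 counts within a library was 1.18 ± 0.274 (SD, n = 3) in GFP+ and 1.88 ± 0.462 in GFP- non-treated cells, and 1.67 ± 0.195 and 2.15 ± 0.265 after anti-PD-L1. In non-treated cells the ratio ranged from 0.88 to 1.42 in GFP+ and from 1.60 to 2.42 in GFP- libraries, without overlap, whereas after anti-PD-L1 the highest GFP+ ratio of 1.89 exceeded the lowest GFP- ratio of 1.87. The ratio of Ifitm1 to Ifitm2 overlapped between the sorted fractions in both treatments, with GFP+ values of 2.25 to 3.64 and GFP- values of 3.03 to 3.67 on the log2 scale in non-treated cells.

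Whether PD-L1 blockade changed the family was tested within each sorted fraction. In GFP+ cells edgeR called 0 of 4 members tested, against 0.0141% of all genes, and 0 members with 10 libraries, against 0.563%. The Ifitm1 log2 fold change was 0.59 ± 0.281 (95% interval -0.01 to 1.20, adjusted p = 0.743 by edgeR), with overlapping libraries, and 0.28 ± 0.226 (-0.19 to 0.74) without KT13 and KT21. Its size depended on KT13 and KT15, being 0.36 without KT13 and 1.04 ± 0.242 without KT15 (adjusted p = 0.285 by edgeR, and 0.285 to 0.931 over the libraries left out). For Ifitm2 the value was 0.21 (-0.37 to 0.80, adjusted p = 0.990) and turned to -0.14 with 10 libraries, for Ifitm3 it was 0.13 (-0.38 to 0.64, adjusted p = 0.9997) and turned to -0.24, and for Ifitm10 it was 0.23 (-0.27 to 0.73, adjusted p = 0.968) and turned to -0.06. The intervals of all 4 members include no change, and that of Ifitm1 also includes a 2-fold higher level.

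In GFP- cells edgeR likewise called 0 of 4 members, where 0% of genes were called with 12 libraries and 0.373% with 10. Against non-treated cells the log2 fold change was 0.27 (95% interval -0.34 to 0.87) for Ifitm1, 0.07 (-0.51 to 0.65) for Ifitm2, -0.04 (-0.54 to 0.47) for Ifitm3 and -0.09 (-0.59 to 0.41) for Ifitm10, each with an adjusted p of 1 by edgeR. DESeq2 called 0 members in either fraction. Of the 14173 genes tested it called 89 in GFP+ and 33 in GFP- cells, and with 10 libraries 135 and 91 of 14747. No member had an unadjusted p under 0.05 by edgeR, although 955 genes did in GFP+ and 487 in GFP- cells.

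The GFP difference itself was compared between treatments by the interaction of sort and treatment. It was 0.33 higher on the log2 scale after anti-PD-L1 for Ifitm1 (95% interval -0.52 to 1.18, adjusted p = 0.9999), 0.15 for Ifitm2 (-0.68 to 0.97), 0.17 for Ifitm3 (-0.55 to 0.89) and 0.32 for Ifitm10 (-0.39 to 1.02). Neither edgeR nor DESeq2 called a member, or any gene (0%, with 12 or 10 libraries), and 295 genes had an unadjusted p under 0.05 with 12 libraries. With 10 libraries the Ifitm1 value was 0.01 (-0.59 to 0.61), and Ifitm2 and Ifitm3 turned to -0.21 and -0.21. Every interval includes 0.

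**Figure D2:**
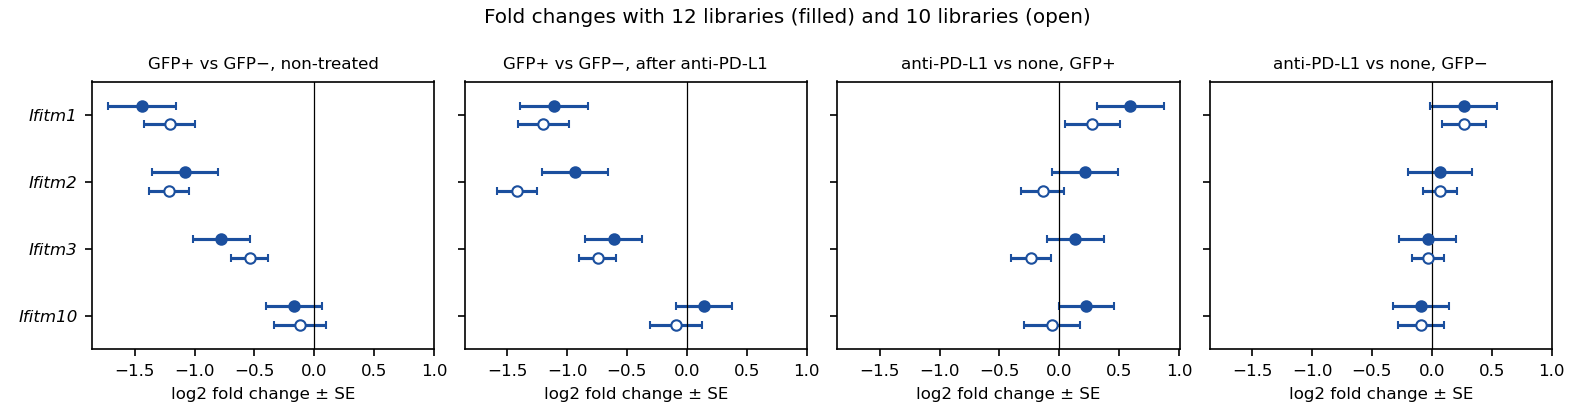
Log2 fold change ± SE of the 4 tested IFITM genes, from the edgeR fit with 12 libraries (filled) and with 10 (open). GFP+ against GFP- values lie between -1.44 and -0.54 for Ifitm1, Ifitm2 and Ifitm3, while the anti-PD-L1 values of all 4 genes lie between -0.24 and 0.59.

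Members of the family take part in the interferon response. Other genes of that response were therefore set beside the family, from lists chosen with earlier results of these libraries known. Of 42 interferon-stimulated genes outside the family, 36 had a log2 fold change below 0 in GFP+ against GFP- non-treated cells, with a median of -0.17 against 0.00 over all genes tested and a range of -0.61 to 0.51. After anti-PD-L1, 32 of the 42 lay below 0, with a median of -0.16 and a range of -0.49 to 0.39. None of the 42 was called by edgeR in either comparison, and 2 and 3 had an unadjusted p under 0.05, where 857 and 578 of the 14173 genes tested did. With 12 libraries, 10 and 8 of the 42 had every GFP+ library below every GFP- library, against 6.63% and 5.33% of genes tested. With 10 libraries 38 and 35 lay below 0 and edgeR again called none. There 6 and 13 had an unadjusted p under 0.05 by edgeR, where 1362 and 788 of 14747 genes did. Of the 42, 16 and 24 had every GFP+ library below every GFP- library, against 12.9% and 10.6% of genes tested. DESeq2 then called Mx1, a dynamin-like antiviral GTPase, among 129 genes in all in non-treated cells.

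The most abundant of these genes were Ifi27l2a, Ly6e and Isg20. Ifi27l2a, which encodes a small interferon-induced membrane protein, had log2 fold changes of -0.30 ± 0.189 in non-treated cells and 0.02 ± 0.189 after anti-PD-L1. Ly6e, a glycolipid-anchored protein that restricts coronavirus entry, had values of -0.10 ± 0.212 and 0.11 ± 0.212, and Isg20, an RNA exonuclease, of -0.53 ± 0.371 and -0.42 ± 0.371. With 12 libraries no gene of the list had as low a log2 fold change as Ifitm1, Ifitm2 or Ifitm3 in either comparison. The members were chosen with these contrasts known, so this order is a description and not a test. With 10 libraries the lowest of the list, -0.66 in non-treated cells, lay below Ifitm3 (-0.54).

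Of 19 genes of interferon signalling, edgeR called 0 in each GFP comparison, with medians of -0.06 and -0.06. The kinase Jak1 had log2 fold changes of 0.09 ± 0.150 and 0.13 ± 0.150 and the transcription factor Irf1 of -0.21 ± 0.214 and -0.11 ± 0.214. Among 10 genes for known partners of IFITM proteins none was called. Vcp, an ATPase that extracts proteins from membranes, had values of 0.00 ± 0.139 and -0.20 ± 0.139, Zdhhc20, a palmitoyltransferase that modifies IFITM3, of -0.02 ± 0.182 and -0.01 ± 0.182, and Fyn, a kinase that phosphorylates IFITM3, of -0.12 ± 0.227 and -0.12 ± 0.227. Of 9 other dispanin genes only 2 passed the filter, among them Ifitm5, the bone-expressed member of the cluster, with 85 counts in all.

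After anti-PD-L1 against non-treated cells, the median of the interferon-stimulated list was -0.12 in GFP+ and -0.12 in GFP- cells. Of its 42 genes 28 and 31 lay below 0, against 50.8% and 50.8% of all genes tested, and edgeR called 0 in either. An unadjusted p under 0.05 by edgeR was found for 7 and 5 of them, where 955 and 487 of 14173 genes had one. With 10 libraries the numbers were 14 and 8, where 1260 and 1064 of 14747 genes had one. With 10 libraries DESeq2 called Bst2 of this list, a tethering factor for viruses, in GFP+ cells and 0 genes of it in GFP- cells. In GFP- cells it called Irf7, a transcription factor from the interferon signalling list. DESeq2 called 135 genes in all in GFP+ and 91 in GFP- cells. The medians over all genes were -0.01 in both comparisons. The 4 tested IFITM members had medians of 0.22 and 0.02, and with 10 libraries the first of these turned to -0.10, beside -0.17 for the interferon-stimulated list.

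**Figure D3:**
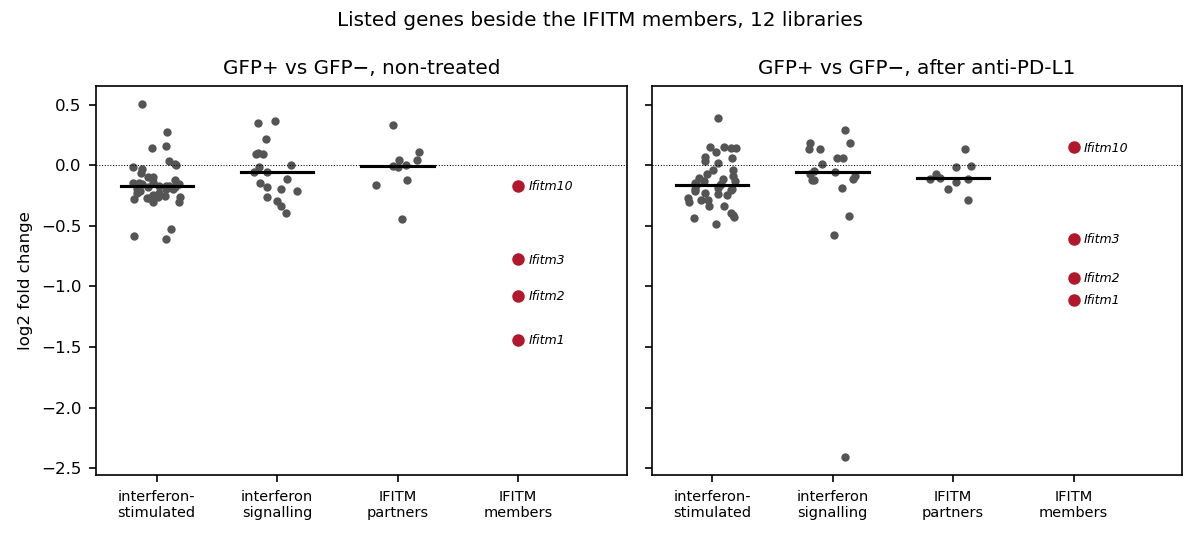
Log2 fold change of GFP+ against GFP- cells (12 libraries) for 42 interferon-stimulated, 19 interferon signalling and 10 IFITM partner genes, each a grey point with the list's median as a line, beside the 4 tested IFITM members in red. Ifitm1 and Ifitm2, already known to be lower in GFP+ cells, lie below every interferon-stimulated and partner gene. The single low signalling gene after anti-PD-L1 is Ifngr2, at -2.41 ± 1.487 and 0.262 to 1.43 CPM.

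Genes whose pattern over the libraries was most like that of each member were found by the root mean square (RMS) difference of centered log2(CPM + 0.5) values. For Ifitm1 these were St8sia1 (0.239), Adgrg3 (0.344), B4galnt4 (0.373), Fgl2 (0.381) and Ly6g5b (0.382), of 14172 other genes. For Ifitm2 they were Stx1a (0.259), Ly6g5b (0.285), Fut7 (0.290), P2ry14 (0.301) and Fam71b (0.305), and for Ifitm3 Oas3 (0.201), Arl4c (0.219), Il2rg (0.230), Socs2 (0.234) and Als2cl (0.240). St8sia1 encodes a sialyltransferase of gangliosides, Adgrg3 an adhesion G protein-coupled receptor, Stx1a a syntaxin of vesicle fusion, Oas3 an interferon-induced sensor of double-stranded RNA, Il2rg the common gamma chain of cytokine receptors and Socs2 a suppressor of cytokine signalling. Ifitm10, which varied little, was nearest to Mrpl19 (0.107), Flna (0.119), Lsm7 (0.126), Usp14 (0.129) and Pxn (0.132). The RMS difference was 0.475 between Ifitm1 and Ifitm2, 0.439 between Ifitm1 and Ifitm3 and 0.430 between Ifitm2 and Ifitm3. All points share the libraries and their depth, and nothing is tested here.

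Among these genes B4galnt4, which encodes a glycosyltransferase that makes LacdiNAc sugar chains, is also a neighbor. It spans chr7:141061104-141072400 on the plus strand, 43180 bases beyond Ifitm6, and it is singled out here after its values were seen. In non-treated cells it stood at 2.49, 10.1 and 5.71 CPM in KT13, KT15 and KT17 (GFP+) and at 16.7, 22.2 and 19.1 CPM in KT14, KT16 and KT18 (GFP-). After anti-PD-L1 it stood at 7.47, 4.78 and 11.5 CPM in KT19, KT21 and KT23 (GFP+) and at 17.6, 23.7 and 29.1 CPM in KT20, KT22 and KT24 (GFP-). All GFP+ libraries again lay below all GFP- libraries, with 28 to 438 raw counts a library. Its log2 fold changes of GFP+ against GFP- cells were -1.65 ± 0.414 and -1.57 ± 0.411, and -1.29 ± 0.279 and -1.31 ± 0.278 with 10 libraries. Over those 10 libraries it was the nearest of 14746 genes to Ifitm1, at an RMS difference of 0.082, and the next gene, Upp1, was at 0.221.

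**Figure D4:**
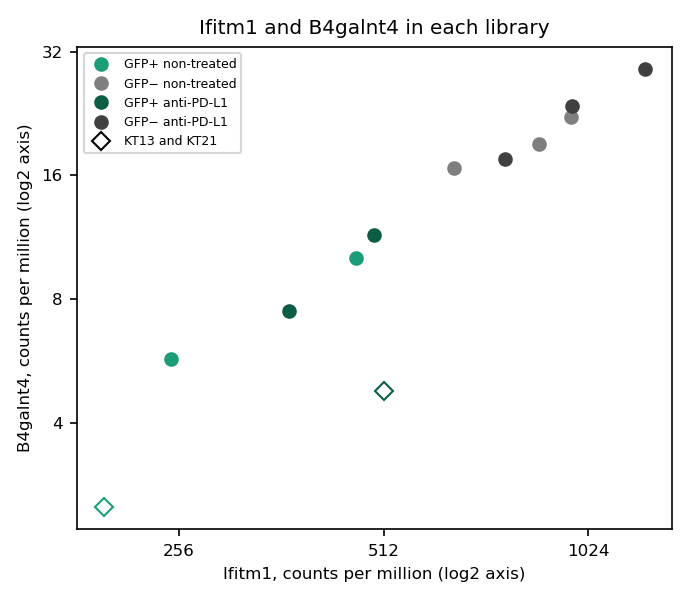
Ifitm1 against B4galnt4 in each library, both in CPM on log2 axes, colored by condition. The 10 filled points run from 249 and 5.71 CPM to 1240 and 29.1 CPM along one line, while KT13 and KT21 (open diamonds) lie below it, KT21 at 513 CPM of Ifitm1 and 4.78 CPM of B4galnt4.

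Genes around the cluster were separated in part, depending on KT13 and KT21. Within 150 kb either side of it, 14 genes were tested at a mean of at least 1 CPM. Next to B4galnt4, Pkp3, a plakophilin of cell junctions, had log2 fold changes of -0.34 ± 0.186 in non-treated cells and -0.10 ± 0.186 after anti-PD-L1, at RMS rank 640 of 14172 from Ifitm1. With 10 libraries these were -0.35 ± 0.137 and -0.33 ± 0.138, with every GFP+ below every GFP- library in both treatments. Of all genes tested with 10 libraries, 12.9% and 10.6% were separated in this direction. Sigirr, an inhibitory receptor of the interleukin-1 family, had values of -0.29 ± 0.181 and 0.32 ± 0.181, with its GFP+ libraries all lower in non-treated cells and all higher after anti-PD-L1. On the other side Pgghg, a glucosidase and the nearest measured gene outside the family at 7173 bases from Ifitm2, had -0.56 ± 0.249 and -0.35 ± 0.250, with overlapping groups among the 12 libraries. With 10 libraries Pgghg was at -0.73 ± 0.247 and -0.47 ± 0.249, without overlap, and its non-treated value lay below that of Ifitm3 (-0.54). With 12 libraries the remaining genes of these 14 lay on both sides of 0. They ranged from -0.61 to 0.53 in non-treated cells and from -0.52 to 0.26 after anti-PD-L1. With 10 libraries some of them were separated in 1 treatment, with every GFP+ below every GFP- library. These were Bet1l (-0.40 ± 0.209) in non-treated cells and Ric8a (-0.32 ± 0.179), Psmd13 (-0.17 ± 0.125) and Ptdss2 (-0.58 ± 0.401) after anti-PD-L1. Sirt3, Gm15542 and Rnh1 overlapped in both treatments. The annotated neighbors Gm45717 and Gm17387 held 0 counts. Beside Ifitm10, Krtap5-4 held 0 counts and the lysosomal protease gene Ctsd had -0.33 ± 0.140 and -0.17 ± 0.140, and -0.39 ± 0.110 and -0.26 ± 0.110 with 10 libraries.

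**Figure D5:**
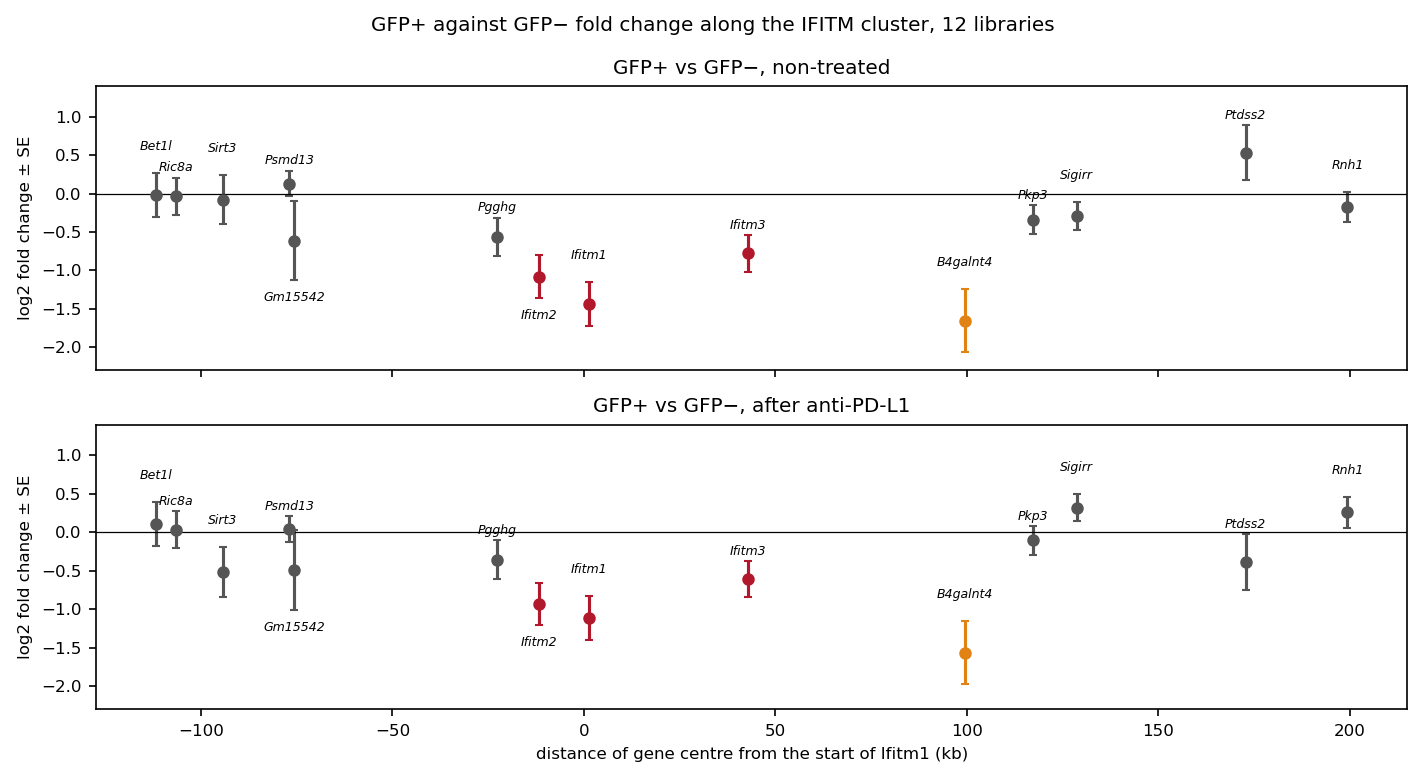
Log2 fold change ± SE of GFP+ against GFP- cells (12 libraries) for the 14 genes with at least 1 CPM within 150 kb of the IFITM cluster, by distance of the gene centre from the start of Ifitm1 in kb. IFITM genes (red) and B4galnt4 (orange) lie lowest in both treatments, and the other genes between -0.61 and 0.53.

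Markers of other cells were measured beside these differences. In non-treated cells the summed level of 7 NK cell markers was 322 to 383.5 CPM in GFP+ and 237.5 to 303 CPM in GFP- libraries, without overlap. After anti-PD-L1 it was 313 to 408 and 253 to 315 CPM, with overlap. Most of it was Klre1 (42.01 to 189 CPM) and Fcer1g (42.05 to 153.8 CPM), and no other marker of this list exceeded 51.27 CPM. The CD8 T cell list was lower in GFP+ non-treated libraries (4221 to 4577 against 4902 to 5055 CPM) and overlapped after anti-PD-L1. The 5 B cell markers summed to 4.27 to 6.52 against 3.69 to 4.16 CPM in non-treated and 4.25 to 7.13 against 2.53 to 4.15 CPM in treated libraries, most of it Cd79b. The 5 endothelial markers were higher in GFP+ non-treated libraries (19.7 to 24.8 against 12.8 to 15.7 CPM), most of it Pecam1, and 6 epithelial markers lower in GFP+ treated libraries (135 to 198 against 201 to 304.5 CPM), most of it Cdh1. Their part in the IFITM values was not tested.

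Myeloid cells express IFITM genes, and their part in the IFITM values was not tested either. The summed levels of their markers overlapped between the sorted fractions in both treatments. The 15 macrophage and monocyte markers summed to 1709 to 2068 CPM in GFP+ and 1606 to 2035 CPM in GFP- non-treated libraries, and to 1644 to 1779 and 1459 to 1773 CPM after anti-PD-L1. Ly6c2 and Plac8, which T cells also express, made up most of this, and without them the sums were 230.4 to 325.5 against 177.5 to 255 CPM and 125 to 193 against 138 to 178 CPM. The 10 neutrophil markers summed to at most 4.90 CPM, with Mmp8, Ngp and Camp at 0 in all 12 libraries. The dendritic cell, CD4 T cell, fibroblast and erythroid sums overlapped between GFP+ and GFP- libraries in both treatments.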

How the data were processed

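The authors deposited a table of raw counts per gene from QuantSeq 3′ mRNA sequencing of 12 libraries, one column each. Per the submitters' processing notes, cutadapt 1.7 trimmed the reads, HISAT2 placed them on mm10 and featureCounts (Subread 1.6.4) assigned them to genes. The paper's methods name a different version of cutadapt and take featureCounts from the package Rsubread. The handling of reads that match several places, or that lie over exons shared by overlapping genes, is not given in the sources used here. Counts were used as deposited, 52403 of 52636 identifiers were matched to a symbol, and no other column was present.

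Genes were filtered by filterByExpr on the 4 conditions (14173 tested with 12 libraries, 14747 with 10), scaled by TMM and fitted in 1 model over all libraries with edgeR 4.0.16 (glmQLFit, glmQLFTest) in R 4.3.3. Benjamini-Hochberg adjustment of p-values ran over all genes tested, and a gene was called at an adjusted p under 0.05. DESeq2 1.42.0 was an alternative, as were upper-quartile scaling, a minimum of 10 counts in every library, no filter, fits of the 2 groups compared alone, leaving out each library and, for the likeness of genes, a pseudocount of 5 in place of 0.5. The script was tested on simulated data. Standard errors were derived from the quasi-likelihood F statistic, and 95% intervals used its degrees of freedom.

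The members and lists were chosen with earlier results of these data known. The genes named were the members, Adora2a, called genes and the 3 most abundant of each list, the 5 genes most like each member, and the protein-coding neighbors. One of the genes this names is not reported here. B4galnt4's place, Pkp3, Sigirr, the remaining genes around the cluster, Ifngr2, Ifitm5 and the genes called by DESeq2 were named after their values were seen. No libraries were copies of each other (smallest chi-square per degree of freedom 11.9). P-values measure the spread between libraries of pooled mice.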

Additional observations from a re-analysis of the deposited data

How the results depend on the processing

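No paired analysis was made because each library carries a code of its own and the labels do not tie GFP+ to GFP- libraries of one pool. The fits treat the GFP+ and GFP- libraries as independent, and whether they share pools was not tested. No member was called for anti-PD-L1 or the interaction under any alternative run. Upper-quartile scaling, a stricter or no filter, DESeq2 and fits of only the 2 groups kept the direction of every anti-PD-L1 change and interaction they gave. None of these moved a member's GFP difference by as much as its SD within conditions on the log2 scale. Without KT13 and KT21, the anti-PD-L1 log2 fold change in GFP+ cells turned to -0.138 for Ifitm2, -0.239 for Ifitm3 and -0.061 for Ifitm10, the interaction turned to -0.208 for Ifitm2 and -0.206 for Ifitm3, and the Ifitm2 GFP difference after anti-PD-L1 moved to -1.419. The Ifitm10 GFP difference after anti-PD-L1 turned from 0.146 to -0.093. The cause was not tested. Leaving out 1 library at a time, the GFP difference ranged from -1.884 to -1.209 for Ifitm1 in non-treated cells and from -1.419 to -0.695 for Ifitm2 after anti-PD-L1. The anti-PD-L1 change in GFP+ cells ranged from 0.364 (without KT13) to 1.039 (without KT15) for Ifitm1, from -0.267 to 0.455 for Ifitm2, from -0.104 to 0.395 for Ifitm3 and from -0.009 to 0.402 for Ifitm10. In GFP- cells it ranged from 0.08 (without KT24) to 0.417 (without KT20) for Ifitm1, from -0.047 to 0.145 for Ifitm2, from -0.151 to 0.157 for Ifitm3 and from -0.212 to 0.127 for Ifitm10. The interaction ranged from 0.096 (without KT13) to 0.772 (without KT15) for Ifitm1, from -0.338 to 0.386 for Ifitm2 and from -0.071 to 0.429 for Ifitm3. Without KT13 and KT21, 3, 2, 3 and 0 of the 5 genes most like Ifitm1, Ifitm2, Ifitm3 and Ifitm10 were shared with those over 12 libraries, and with a pseudocount of 5 in place of 0.5 the numbers were 4, 3, 4 and 3. Ifitm6 alone among the members did not pass the filter on low counts.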
